A study of Mus musculus with 4 samples.

Results

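The matrix metalloproteinases and their tissue inhibitors were followed through 4 RNA-seq libraries of immortalized murine dermal fibroblasts (imMDFs). The genes were taken by their RefSeq symbols from the transcript IDs of the count tables, and 10 of the 23732 genes counted belong to the group: 7 metalloproteinases (*Mmp2*, *Mmp3*, *Mmp9*, *Mmp10*, *Mmp11*, *Mmp13* and *Mmp14*) and 3 inhibitors (*Timp1*, *Timp2* and *Timp3*). They carry 11 of the 32757 IDs, since *Timp1* has 2. The libraries came from *Tmpo* WT cells (Lap2alpha +/+) and *Tmpo* KO cells (Lap2alpha -/-), each with replicate 1 at passage 34 and replicate 2 at passage 42. LAP2alpha is a nucleoplasmic protein made from *Tmpo* that binds A-type lamins, and the comparison asks which transcripts differ in its absence. All cells were untreated, grew in the same serum-containing medium and were passaged before full confluence. The sources name 1 line per genotype, so the loss of LAP2alpha and any other difference between the lines cannot be told apart. They do not say whether the replicates were separate cultures, apart from their passages, so the p-values reflect no more than the differences among these 4 libraries, which may be technical.

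Matrix metalloproteinases (MMPs) are zinc-dependent endopeptidases that cleave collagens, laminins, fibronectin, proteoglycans and many cell surface proteins. Most are secreted as inactive proenzymes, and the membrane-bound ones act at the cell surface. Tissue inhibitors of metalloproteinases (TIMPs) bind the active enzymes and block them, so RNA levels of enzyme and inhibitor do not give the activity. In skin, fibroblasts are a main source of several of these enzymes, which take part in the turnover of dermal collagen and in wound repair.

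Between 12168433 and 19603812 reads per library were given to transcripts, which was 31.4% to 36.7% of the reads in the files, and between 12.1% and 13.4% were set aside as ambiguous because they matched more than 1 ID. Levels are given as CPM, the reads of a transcript per 1000000 reads given to transcripts. The *Tmpo* ID that was counted had 903 and 1324 reads in WT at passages 34 and 42 and 6 in each KO library, as the labels state. According to the paper, the deletion removes LAP2alpha specifically. These counts of 1 ID do not show whether other *Tmpo* products, such as LAP2beta, were lost. The 12 fibroblast markers summed to 13257 to 14277 CPM in WT and 12353 to 15979 CPM in KO, and 10 of them reached 1 CPM in every library. *Pdgfrb* was listed at 0 in all 4 libraries. A listed 0 need not mean absence, because reads in exons that several IDs of a gene cover are set aside as ambiguous. Of genes with more than 1 ID, 16.3% were at 0 in every library, beside 4.01% of genes with 1 ID. In sums over a bulk culture, fewer cells of one kind and less RNA per cell cannot be told apart.

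The genes for *Mmp3*, *Mmp10* and *Mmp13* lie on chromosome 9 in a cluster of 10 annotated MMP genes, which spans 427 kb from base 7272514 to base 7699585 (build NCBIM37). The 250 bases before the start given by a RefSeq promoter table are shown for these 3, because the windows share sequence features that the other members examined do not have. The table, of GRCm38.p6, held 8 of the 10 members, without *Mmp2* and *Mmp9*. Distances are counted from its starts, and that of *Mmp10* lies a few bases upstream of the NCBIM37 gene start given below. Each window has 1 exact match on chromosome 9 of NCBIM37, on the plus strand, for *Mmp3* at chr9:7445572-7445821, for *Mmp10* at chr9:7502092-7502341 and for *Mmp13* at chr9:7272264-7272513. Letters are given 5′ to 3′, and capitals mark matches on either strand to 4 short motifs. The AP-1 motif was searched as TGANTCA, with any base at N. The motif of Ets factors was searched by its letters AGGAAG. For Runx factors the letters searched were TGTGGT. The TATA box was searched as TATAAA.
Mmp3: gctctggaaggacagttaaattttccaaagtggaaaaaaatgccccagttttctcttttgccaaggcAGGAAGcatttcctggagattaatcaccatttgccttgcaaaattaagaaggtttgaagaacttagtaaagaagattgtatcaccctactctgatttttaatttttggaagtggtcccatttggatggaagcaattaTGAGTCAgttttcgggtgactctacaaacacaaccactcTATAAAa
Mmp10: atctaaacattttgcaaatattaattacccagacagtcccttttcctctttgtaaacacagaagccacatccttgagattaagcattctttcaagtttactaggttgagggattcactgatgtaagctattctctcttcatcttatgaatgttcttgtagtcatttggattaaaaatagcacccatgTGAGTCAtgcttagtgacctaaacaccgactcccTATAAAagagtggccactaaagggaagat
Mmp13: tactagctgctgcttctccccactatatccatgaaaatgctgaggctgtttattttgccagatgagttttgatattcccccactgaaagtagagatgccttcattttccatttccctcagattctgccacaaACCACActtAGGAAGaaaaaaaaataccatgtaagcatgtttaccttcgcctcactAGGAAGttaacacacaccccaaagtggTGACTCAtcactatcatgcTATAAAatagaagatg

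AP-1, the dimer of Fos and Jun proteins, is well known as a regulator of the stromelysin and collagenase genes. An AP-1 match lay 46 to 40 bases before the start of *Mmp3*, 63 to 57 bases before that of *Mmp10* and 35 to 29 bases before that of *Mmp13*. Each of these windows also held TATAAA between the AP-1 match and the start. It lay 7 to 2 bases before the start for *Mmp3*, 29 to 24 for *Mmp10* and 16 to 11 for *Mmp13*. All these distances rest on the starts of the promoter table. None of the other 5 members with a window (*Mmp11*, *Mmp14*, *Timp1*, *Timp2* and *Timp3*) held either of these motifs. The windows of *Mmp11* (chr10:75395248-75395497) and *Timp2* (chr11:118216726-118216975) lie inside the NCBIM37 genes given below. That of *Timp3* (chr10:85762907-85763156) runs past its NCBIM37 gene start. The absence therefore holds for these windows alone. Of 32851 promoter windows of the same length, 6.75% held the AP-1 letters, 12.4% TATAAA and 1.21% both. The Ets letters were in 29.5% of all windows and in those of *Mmp3*, *Mmp13*, *Mmp14*, *Timp1* and *Timp3*, and the Runx letters in 14.0% and in those of *Mmp13* and *Mmp14*. No motif overlapped another in the windows shown. These are matches of letters and not measured sites.

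Among the 10 genes, *Mmp3* was higher in *Tmpo* KO imMDFs, and the gelatinase genes *Mmp2* and *Mmp9* were lower. The RNA of the membrane-bound *Mmp14*, of *Mmp11* and of the inhibitors *Timp2* and *Timp3* did not pass the test in either direction. Of the 10 members, 8 reached the level needed for the test (at least 1 CPM in both libraries of at least 1 genotype), and *Mmp3* and *Mmp13* did so only through KO. A transcript was called changed at an adjusted p under 0.05 in edgeR's quasi-likelihood test over 13855 transcripts. There were 3 members called, 1 higher and 2 lower, where 2.75% of all tested transcripts were called, 1.51% as higher and 1.24% as lower in KO. The 1 called higher was *Mmp3*, whose direction the filter had fixed, so nothing is read from the counts that include it. KO libraries lay above both WT libraries for 2 of the 8 tested members and below both for 3, with 23.2% and 18.5% as the shares of all tested transcripts. The 2 above were *Mmp3* and *Mmp13*, for which the filter had fixed that direction, so nothing is read from that count. The median log2 fold change of the 8 was −0.12, beside 0.02 over all transcripts tested.

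**Figure D1:**
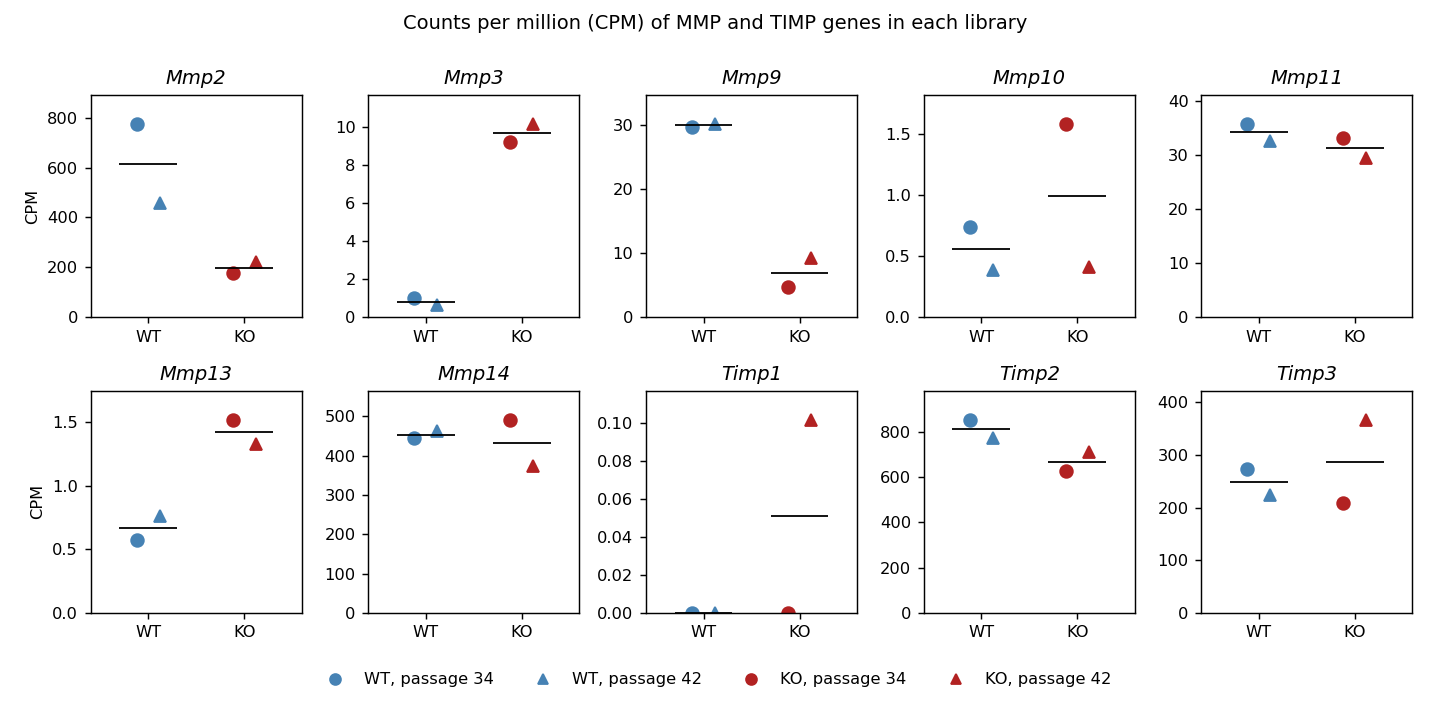
CPM (vertical axes, linear from 0, with a scale of its own for each gene) of the 10 genes in the 4 libraries, with WT in blue, KO in red, circles for passage 34, triangles for passage 42 and a line at the mean of 2 libraries. For *Mmp3* both KO points lie above both WT points, for *Mmp2* and *Mmp9* both lie below, and *Timp1* has 2 reads in 1 library and none in the others.

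*Mmp3* (NM_010809, chromosome 9, bases 7445822 to 7455972, plus strand) encodes stromelysin-1, which cleaves proteoglycans, laminin and fibronectin and activates other pro-MMPs. At passage 34 it had 12 reads in WT and 145 in KO, and at passage 42 it had 10 and 199. These are 0.986 and 0.638 CPM in WT, and 9.19 and 10.2 CPM in KO. Both KO libraries stood far above both WT libraries, and the counting intervals did not meet: the exact 95% binomial (Clopper-Pearson) limits reached up to 1.72 CPM in WT and started at 7.75 CPM in KO. These intervals cover counting error only. The mean rose from 0.812 ± 0.246 CPM in WT to 9.67 ± 0.683 CPM in KO (SD, n = 2), with a log2 fold change of 3.56 (SE 0.421, adjusted p = 0.00118), or 11.8-fold. The log2 difference was 3.17 at passage 34 and 3.93 at passage 42. Since *Mmp3* entered the test only through its KO level, a filter of 1 CPM in all 4 libraries leaves it out.

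*Mmp10* (NM_019471, chromosome 9, bases 7502352 to 7510238, plus strand), the gene of stromelysin-2, begins 46.4 kb beyond the end of *Mmp3* and shares 206 stretches of 30 bases with it, which are 12.2% of those in the *Mmp10* transcript. At passage 34 it had 9 reads in WT and 25 in KO, and at passage 42 it had 6 and 8. At 0.740 and 0.383 CPM in WT and 1.58 and 0.408 CPM in KO, the genotypes overlapped, and the gene was too low to be tested. Reads in stretches shared with *Mmp3* may be placed with either gene or dropped by the mapping quality limit, so values of both are uncertain to that extent.

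*Mmp13* (NM_008607, chromosome 9, bases 7272514 to 7283333, plus strand) encodes the main interstitial collagenase of rodents, collagenase-3. It had 7 and 24 reads in WT and KO at passage 34 and 12 and 26 at passage 42. Both KO libraries, at 1.52 and 1.33 CPM, lay above the WT libraries, at 0.575 and 0.765 CPM. The log2 fold change of 1.04 (SE 0.449) did not pass the test (adjusted p = 0.360). As for *Mmp3*, only the KO level carried it into the test.

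The other genes of the cluster were low in every library and are named for their place beside these members. *Mmp12*, the macrophage metalloelastase gene, was the one of them that was tested, with 11 and 10 reads in WT and 29 and 23 in KO at passages 34 and 42, and its log2 fold change of 0.94 was not called (adjusted p = 0.458). *Mmp1a*, one of the genes related to human interstitial collagenase, lies next to *Mmp3* and had 14 and 11 reads in WT and 3 and 7 in KO. *Mmp8*, the neutrophil collagenase gene, had 11 and 5 reads in WT and 24 and 15 in KO. *Mmp1b*, *Mmp20* and *Mmp7* had between 1 and 23 reads per library. Within the cluster, *Mmp3* in KO was the one gene that exceeded 2 CPM.

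**Figure D2:**
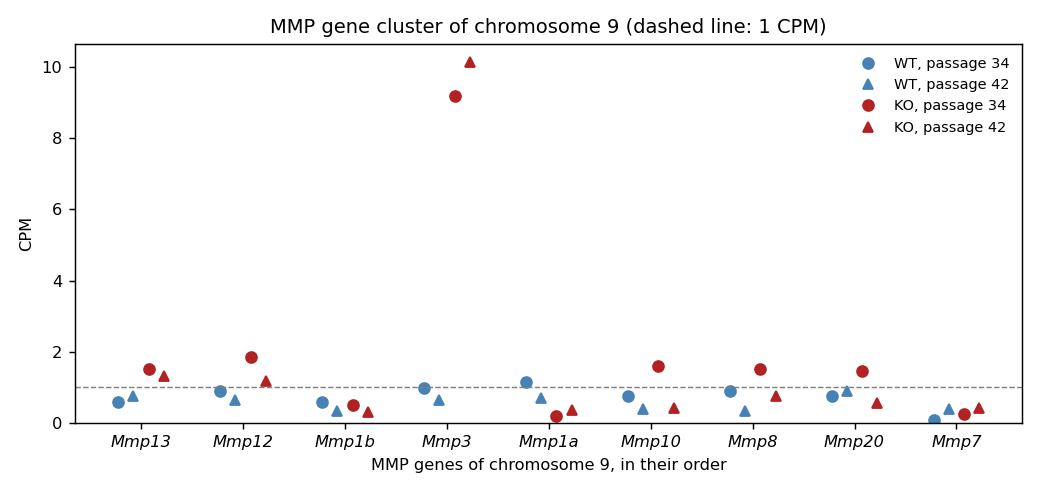
CPM (vertical axis, linear) of the 9 counted MMP genes of the chromosome 9 cluster, in their order along the chromosome, with WT in blue, KO in red, circles for passage 34, triangles for passage 42 and a dashed line at 1 CPM. The *Mmp3* points of KO stand at 9.19 and 10.2 CPM, and every other point lies under 2 CPM.

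*Mmp2* (NM_008610, chromosome 8, bases 95351227 to 95377316, plus strand) encodes gelatinase A, which degrades denatured collagen and the type IV collagen of basement membranes and is made by fibroblasts under most conditions. At passage 34 it had 9421 reads in WT and 2803 in KO, and at passage 42 it had 7148 and 4325. These are 774 and 456 CPM in WT, and 178 and 221 CPM in KO. Both KO libraries were below both WT libraries, and the WT libraries differed from each other more than the KO libraries did. The mean was 615 ± 225 CPM in WT and 199 ± 30.4 CPM in KO (SD, n = 2). The log2 fold change was −1.65 (SE 0.278, adjusted p = 0.00914), a level 3.14-fold lower in KO. The log2 difference was −2.12 at passage 34 and −1.05 at passage 42.

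*Mmp9* (NM_013599, chromosome 2, bases 164766280 to 164781350, plus strand) encodes gelatinase B, which has similar substrates and is known for its release by neutrophils and macrophages and its induction in many other cells. At passage 34 it had 362 reads in WT and 74 in KO, and at passage 42 it had 473 and 181. These are 29.7 and 30.2 CPM in WT, close to each other, and 4.69 and 9.23 CPM in KO, both far below. The mean was 29.96 ± 0.298 CPM in WT and 6.96 ± 3.21 CPM in KO (SD, n = 2). The log2 fold change was −2.11 (SE 0.349, adjusted p = 0.00800), a level 4.32-fold lower in KO. The log2 difference was −2.66 at passage 34 and −1.71 at passage 42.

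Without the WT library of passage 34, neither gelatinase gene was called by edgeR. The log2 fold change of *Mmp2* was then −1.20, beside −1.65 with all libraries. That of *Mmp9* was −2.11 in both fits, so the size of its difference did not rest on that library. Without the other WT library, the log2 fold change was −2.01 for *Mmp2* and −2.14 for *Mmp9*. Why the calls were lost in the fit without the WT library of passage 34 was not tested. The lost calls alone do not show that either difference depended on that library. Over all 14 alternatives the adjusted p ran from 1.11e-14 to 0.0660 for *Mmp2* and from 4.70e-11 to 0.0532 for *Mmp9*. That of *Mmp3* ran from 4.92e-14 to 0.0141 over the 13 alternatives that tested it.

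Since leukocytes are a known source of *Mmp9*, their markers are given beside it. The macrophage and leukocyte list, of which 8 of 9 names were matched, summed to 11.9 to 16.5 CPM in WT and 16.8 to 23.9 CPM in KO, where *Mmp9* was lower. *Cd68* and *Itgam* were listed at 0 in all 4 libraries, and *Ptprc*, the pan-leukocyte marker CD45, had 0 to 4 reads. The 5 matched neutrophil markers summed to 46.5 to 71.1 CPM in WT and 63.4 to 86.0 CPM in KO, of which *Cxcr2* made up 45.0 to 68.9 and 61.8 to 82.5 CPM, and *S100a9* was listed at 0. As for *Pdgfrb*, such listed zeros need not mean absence. The macrophage and leukocyte ranges were set apart by *Csf1r*, at 5.42 and 5.23 CPM in WT and 11.02 and 9.08 CPM in KO. Without it the sum was 11.1 and 6.63 CPM in WT and 12.9 and 7.70 CPM in KO, and the genotypes overlapped, as they did for the neutrophil markers. Their part in the *Mmp9* difference was not tested.

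Markers of other cell types that dermis could hold are given by their sums. The 8 keratinocyte markers summed to 15.9 to 22.6 CPM over the 4 libraries, with *Trp63* listed at 0, the 6 endothelial markers to 10.7 to 14.4 CPM, with *Tek* listed at 0, and the 5 adipocyte markers to 6.63 to 10.8 CPM. Here too, a listed 0 need not mean absence. The 7 pigment and Schwann cell markers summed to 34.8 and 42.9 CPM in WT and 52.0 and 36.6 CPM in KO. The 6 smooth muscle and pericyte markers were far higher, with sums of 2910 and 2543 CPM in WT and 2887 and 2014 CPM in KO, most of it *Acta2*, which myofibroblasts also express (2448 and 2067 CPM in WT, 2273 and 1658 CPM in KO). Where 1.51% of all tested transcripts were called higher in KO, 2 genes of all marker lists were called, both as higher. These were *Thy1* of the fibroblasts (3743 and 4307 reads in WT, 20957 and 14838 in KO) and *Cspg4* of the pericytes (71 and 51 reads in WT, 367 and 543 in KO). They were 1 of 11 fibroblast markers tested and 1 of 5 smooth muscle and pericyte markers tested. The fibroblast marker *Dcn* went the other way, at a log2 fold change of −1.18, and was not called (adjusted p = 0.194). The part of the marker genes in the MMP differences was not tested.

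*Mmp14* (NM_008608, chromosome 14, bases 55050441 to 55060095, plus strand) encodes the membrane-type enzyme MT1-MMP, a cell surface collagenase that activates pro-MMP-2 in a complex with TIMP-2. At passage 34 it had 5405 reads in WT and 7760 in KO, and at passage 42 it had 7250 and 7330. At 444 and 462 CPM in WT and 492 and 374 CPM in KO, the KO libraries lay on either side of the WT libraries. The means were 453 ± 12.9 and 433 ± 83.2 CPM (SD, n = 2), and the log2 fold change of −0.10 (SE 0.209) was not called (adjusted p = 0.928). Its log2 difference was 0.15 at passage 34 and −0.31 at passage 42, so *Mmp14* had no common sign at the passages. The annotated gene overlaps *Gm11067* on the other strand.

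*Mmp11* (NM_008606, chromosome 10, bases 75385967 to 75400678, minus strand), the gene of stromelysin-3, known from stromal fibroblasts and activated inside the cell by furin, was nearly even over the libraries. It had 35.7 and 32.7 CPM in WT and 33.3 and 29.5 CPM in KO at passages 34 and 42, from 435, 512, 525 and 578 reads. The genotypes overlapped, and the log2 fold change of −0.15 (SE 0.230) was not called (adjusted p = 0.880). It overlaps *Chchd10* on the other strand and *Gm867* on the same strand, with the strand setting for these counts not given in the sources used here.

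The TIMP genes that could be measured were abundant and were not called. *Timp2* (NM_011594, chromosome 11, bases 118162383 to 118217054, minus strand), whose product both inhibits MMPs and helps MT1-MMP to activate pro-MMP-2, had 855 and 775 CPM in WT and 625 and 711 CPM in KO at passages 34 and 42. Both KO libraries lay below both WT libraries, but the log2 fold change of −0.31 (SE 0.215) did not pass the test (adjusted p = 0.652). It overlaps *BC100451* on the same strand.

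*Timp3* (NM_011595, chromosome 10, bases 85763117 to 85812251, plus strand) encodes an inhibitor bound to the matrix, which also blocks ADAM proteases. At passage 34 it had 3321 reads in WT and 3281 in KO, and at passage 42 it had 3523 and 7196, or 273 and 225 CPM in WT and 208 and 367 CPM in KO. The KO library of passage 42 was the highest of the 4 and that of passage 34 the lowest. The log2 difference was −0.39 at passage 34 and 0.71 at passage 42, and the fitted value of 0.19 (SE 0.276) was not called (adjusted p = 0.873). *Timp3* lies within *Syn3*, on the other strand.

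*Timp1* (chromosome X, bases 20447292 to 20451861, plus strand, within *Syn1* on the other strand) gives no usable value in these tables. NM_001044384 had 2 reads in KO at passage 42 and 0 in the other libraries, and NM_011593 had 0 in all 4. With an exact 95% binomial limit, a count of 0 allows up to 0.303 CPM in the shallowest library, for reads that can be counted at all. Each ID is a feature of its own, and reads in exons that both IDs cover are counted as ambiguous. Of the 4707 genes with more than 1 ID, 768 (16.3%) were at 0 in every library, beside 762 of 19025 genes with 1 ID (4.01%). The counts therefore do not show whether *Timp1* was expressed.

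**Figure D3:**
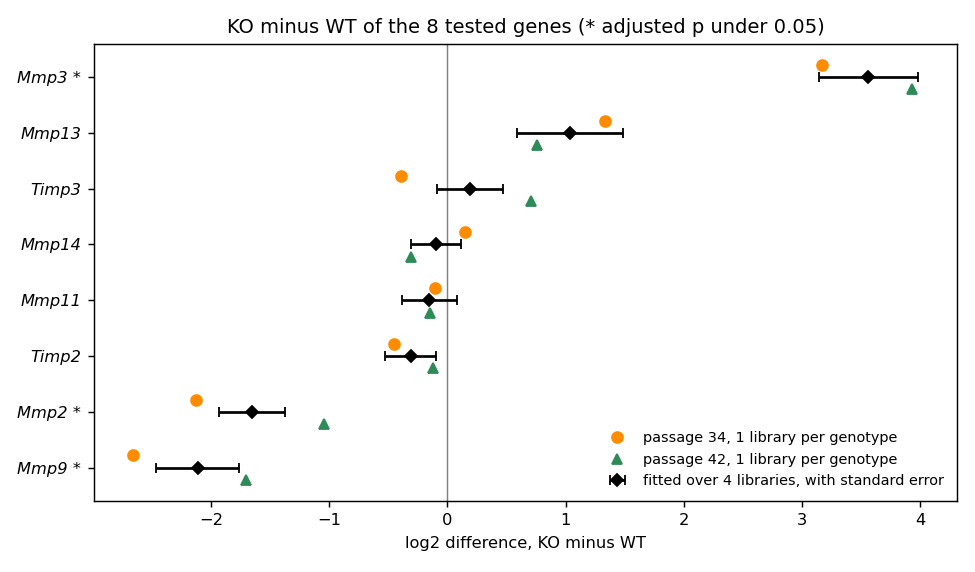
Log2 difference of KO minus WT (horizontal axis) for the 8 tested genes, with the fitted fold change over 4 libraries as a black diamond with its standard error, passage 34 as an orange circle and passage 42 as a green triangle. *Mmp3* lies at 3.56, *Mmp2* at −1.65 and *Mmp9* at −2.11, each with both passages on the same side of 0, whereas the passages fall on opposite sides of 0 for *Mmp14* and *Timp3*.

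The sign of the difference was the same at both passages for 6 of the 8 tested members. It was opposite for *Mmp14* and *Timp3*, beside 40.7% of all tested transcripts with opposite signs. With 1 library per genotype at a passage, the difference between passages could not be tested. In a fit of passage 42 against passage 34 with genotype as a term, 0 of the 8 members were called by edgeR's quasi-likelihood test and 0 had an unadjusted p under 0.05, while 2.31% of all transcripts were called. The smallest p was that of *Mmp9*, with a log2 difference of 0.47 (adjusted p = 0.573). The passage differences of the other tested members lay between −0.21 for *Mmp2* and 0.29 for *Timp3*.

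Levels of different genes were compared as CPM per kilobase of the longest coding transcript of NCBIM37, each a mean of 2 libraries with its SD. In WT the order was *Timp2* (220 ± 15.2), *Mmp2* (202 ± 74.1), *Mmp14* (175 ± 4.97), *Timp3* (52.7 ± 7.22), *Mmp11* (14.9 ± 0.955) and *Mmp9* (9.44 ± 0.0939). *Mmp3* (0.452 ± 0.137), *Mmp10* (0.326 ± 0.147) and *Mmp13* (0.251 ± 0.0503) followed far below. The *Mmp2* libraries spanned those of both of its neighbours in this order, and the libraries of *Mmp10* overlapped with those of *Mmp3* and of *Mmp13*. The steps from *Mmp14* to *Timp3*, *Mmp11*, *Mmp9* and *Mmp3* were each larger than the spread between libraries.

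In KO the order of these length-scaled levels was *Timp2* (180 ± 16.4), *Mmp14* (167 ± 32.0), *Mmp2* (65.5 ± 10.0), *Timp3* (60.9 ± 23.8), *Mmp11* (13.7 ± 1.17), *Mmp3* (5.38 ± 0.380), *Mmp9* (2.19 ± 1.01), *Mmp10* (0.579 ± 0.483) and *Mmp13* (0.532 ± 0.0513). *Timp2* and *Mmp14* did not differ beyond their spread, nor did *Mmp2* and *Timp3*, nor *Mmp10* and *Mmp13*. *Mmp3* thus stood above *Mmp9* in both KO libraries (5.11 and 5.65 against 1.48 and 2.91), whereas in WT *Mmp9* stood above *Mmp3* (9.37 and 9.50 against 0.548 and 0.355).

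The summed length-scaled level of the 7 MMP genes was 452 and 353 CPM per kilobase in WT and 270 and 239 in KO, at passages 34 and 42. That of the TIMP genes, in effect *Timp2* and *Timp3*, was 288 and 257 in WT and 213 and 270 in KO. The ratio of the sums was 1.57 and 1.37 in WT, and 1.27 and 0.886 in KO. Both KO ratios lay below both WT ratios. The mean log2 ratio was 0.55 ± 0.134 in WT and 0.09 ± 0.369 in KO (SD, n = 2), a difference of −0.47, and with 2 libraries against 2 an exact two-sided permutation test cannot give a p under 0.333. The difference rested on *Mmp2*: it was 0.0921 without that gene and −1.15 without *Mmp14*. These sums are of RNA, and *Timp1* enters them only with its unusable counts, at most 0.116 CPM per kilobase.

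*Mmp2* and *Mmp14* made up most of the MMP sum, and their order was not the same in every library. *Mmp2* took 56.4% and 42.5% of it in WT and 21.6% and 30.4% in KO at passages 34 and 42, and *Mmp14* took 37.8% and 50.5% in WT and 70.0% and 60.3% in KO. In WT, *Mmp2* exceeded *Mmp14* at passage 34 and not at passage 42, and in KO it was the lower at both. Despite its large fold change, *Mmp3* reached only 1.89% and 2.36% of the sum in KO, from 0.121% and 0.101% in WT. *Mmp9* took 2.07% and 2.69% in WT and 0.546% and 1.22% in KO. The ratio of *Mmp14* to *Timp2*, the pair that acts on pro-MMP-2, was 0.742 and 0.852 in WT and 1.12 and 0.751 in KO, which overlapped. The ratio of *Mmp2* to *Timp2* was 1.11 and 0.718 in WT and 0.347 and 0.379 in KO, which did not.

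**Figure D4:**
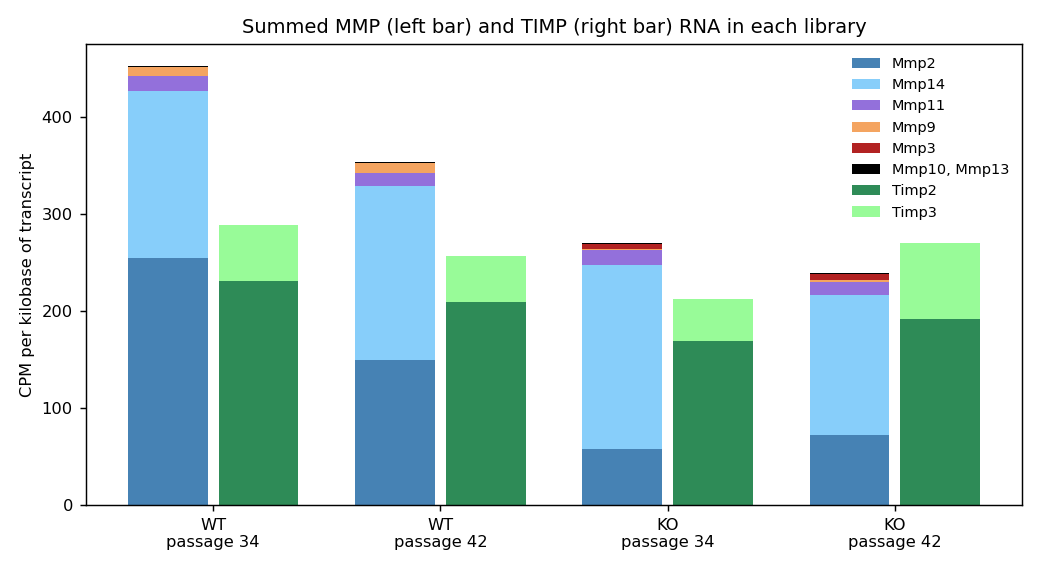
Summed length-scaled level (vertical axis, CPM per kilobase of transcript, from 0) of the MMP genes (left bar) and TIMP genes (right bar) in each of the 4 libraries, with the colours of the segments standing for genes. The MMP bars of KO, at 270 and 239, are lower than those of WT, at 452 and 353, with a smaller *Mmp2* segment, and *Mmp3* is a thin segment in KO.

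For each called member, the 3 transcripts whose log2 CPM over the 4 libraries followed it most closely were found by the Euclidean distance of centred values. Nearest to *Mmp3* were *Mycn*, which encodes a MYC family transcription factor (distance 0.212, with 20 and 16 reads in WT and 263 and 376 in KO), *Mettl7b* (0.452) and *Bnc1*, which encodes the zinc finger protein basonuclin (0.516). Nearest to *Mmp9* were *Rassf2* (0.203, with 1130 and 1722 reads in WT and 274 and 593 in KO), *Col23a1*, the gene of a transmembrane collagen (0.274), and *Pltp*, the phospholipid transfer protein gene (0.332). Nearest to *Mmp2* were the chemokine gene *Cxcl16* (0.159, with 101 and 76 reads in WT and 27 and 49 in KO), *Pamr1* (0.196) and *Tceal1* (0.234). With 4 libraries, such likeness is a description of the same contrast and no more.

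Genes that act with the MMPs were taken by list. As background, 1.51% of all tested transcripts were called higher and 1.24% lower in KO. Of 17 other MMP and TIMP genes, 16 were in the tables and 7 were tested, and none was called by edgeR's quasi-likelihood test, with 1 at an unadjusted p under 0.05. That gene was *Mmp23*, a membrane-anchored member of the family, with 50.8 and 35.3 CPM in WT and 12.2 and 24.5 CPM in KO. Both KO libraries lay below both WT libraries, and the log2 fold change was −1.24 (SE 0.346, adjusted p = 0.104). It was called lower by DESeq2 (adjusted p = 0.0131) and by the exact and likelihood ratio tests of edgeR. These 3 called 545, 612 and 638 of the 13855 transcripts in either direction. The quasi-likelihood test did not call it with RLE size factors (adjusted p = 0.0801) or library totals (adjusted p = 0.0887). With 1 library left out at a time, its log2 fold change ran from −1.88 to −0.81. *Mmp16*, the gene of another membrane-type MMP that can activate pro-MMP-2, had a log2 fold change of 0.57 (adjusted p = 0.441), and *Mmp17*, whose product is held by a lipid anchor, 0.63 (adjusted p = 0.572). The median over the 7 was −0.29, beside 0.02 over all transcripts.

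Of 25 genes for the activation, inhibition and clearance of MMPs, 19 were tested, with 1 higher in KO, 0 lower and a median log2 fold change of 0.41. The shares over all tested transcripts were 1.51% higher and 1.24% lower. The one called was *Tfpi2*, whose product inhibits plasmin and other serine proteases that can activate pro-MMPs. It had 12 and 9 reads in WT and 65 and 59 in KO (log2 fold change 2.17, SE 0.466, adjusted p = 0.0315), and like *Mmp3* it passed the filter only through KO. *Itgb3*, the integrin beta 3 gene, had a log2 fold change of 1.05 (adjusted p = 0.101), *Cd44*, the gene of a hyaluronan receptor that holds MMPs at the surface, 1.07 (adjusted p = 0.301), and the protease inhibitor gene *Serpine2* −1.15 (adjusted p = 0.238). DESeq2 called 545 of the 13855 transcripts in either direction, and 2 of these 19 as higher, *Tfpi2* and *Itgb3*. Nothing is read from this count, since the filter had fixed the direction of *Tfpi2*.

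Of 13 ADAM and aggrecanase genes, relatives of the MMPs that shed surface proteins or cut proteoglycans, 8 were tested, with 0 higher, 2 lower and a median of −0.35. Beside this, 1.51% of all tested transcripts were called higher and 1.24% lower. *Adam22*, whose product has no protease activity and is known as a receptor at synapses, had 236 and 339 reads in WT and 45 and 83 in KO (log2 fold change −2.54, SE 0.335, adjusted p = 0.00238). *Adam19*, a sheddase gene, had 1549 and 2586 reads in WT and 1238 and 1288 in KO (log2 fold change −1.05, SE 0.210, adjusted p = 0.0220). Not called were *Adam23*, at −0.91 (adjusted p = 0.386), and the aggrecanase gene *Adamts4*, at 0.60 (adjusted p = 0.390).

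Of 21 matrix substrates, 19 were tested, with 1 higher in KO, 0 lower and a median of 0.08. Over all tested transcripts, 1.51% were called higher and 1.24% lower. *Tnc*, which encodes tenascin-C, a matrix glycoprotein of wounds, rose from 787 ± 61.8 CPM in WT to 1936 ± 698 CPM in KO (SD, n = 2, log2 fold change 1.27, SE 0.267, adjusted p = 0.0290). The KO libraries, at 2430 and 1442 CPM for passages 34 and 42, differed from each other more than the WT libraries, at 830 and 743 CPM. Not called were the collagen genes *Col5a2*, at 0.93 (adjusted p = 0.0894), and *Col4a2*, a chain of the type IV collagen that gelatinases cleave, at 0.62 (adjusted p = 0.166), and the laminin gene *Lamb1*, at 0.79 (adjusted p = 0.108). DESeq2 called 545 of the 13855 transcripts in either direction, and 3 of these 19 as higher, namely *Tnc*, *Col5a2* and *Lamb1*.

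Of 26 genes for transcription factors and signals known to act on MMP promoters, 20 were tested, with 3 higher in KO, 0 lower and a median of 0.28. Among all tested transcripts, 1.51% were called higher and 1.24% lower. *Hbegf*, the gene of a ligand of the EGF receptor, had 311 and 465 reads in WT and 1653 and 1382 in KO (log2 fold change 1.63, SE 0.240, adjusted p = 0.00441). *Tgfb1*, the gene of a growth factor that promotes matrix deposition, had 78 and 72 reads in WT and 313 and 295 in KO (1.64, SE 0.327, adjusted p = 0.0213). *Osmr*, the oncostatin M receptor gene, had 1700 and 1531 reads in WT and 3607 and 5211 in KO (1.03, SE 0.233, adjusted p = 0.0399). All 3 are signalling genes, and none of the AP-1, Ets or Runx genes tested was called. *Etv5*, of the Ets family, had the smallest p of those, with a log2 fold change of 0.78 (adjusted p = 0.102). The 6 tested genes of the Fos and Jun families, whose products make up AP-1, ran from −0.03 for *Fosl1* to 0.66 for *Fosl2*. Of the 20 tested genes of the list, 7 had an unadjusted p under 0.05 in the quasi-likelihood test. Among these were *Fosl2* and *Jun* (0.53), and in the other direction *Egfr* (−0.82).

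**Figure D5:**
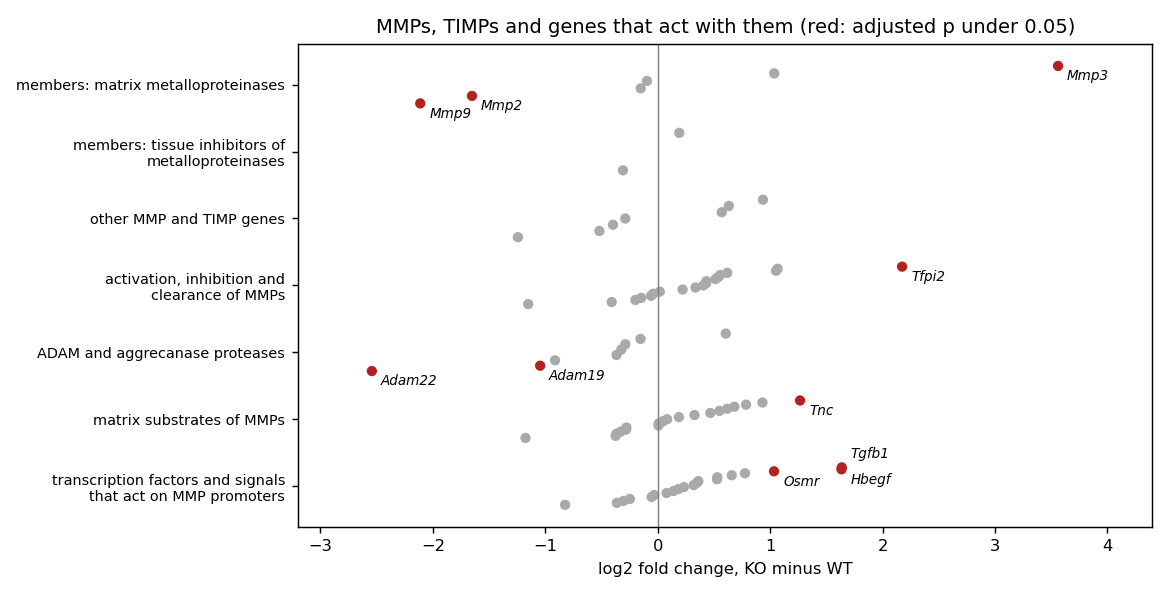
Log2 fold change of KO against WT (horizontal axis) of the tested genes in 7 lists, the members in the upper 2 rows and the genes that act with them below, with 1 point per gene and those called at an adjusted p under 0.05 in red and named. *Mmp3* lies farthest to the right at 3.56, and *Adam22*, *Mmp9* and *Mmp2* are the called genes farthest to the left.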

How the data were processed

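RNA-seq libraries of *Tmpo* WT and *Tmpo* KO imMDFs (2 per genotype) were grouped by the sample labels. The deposited files hold raw counts per RefSeq transcript ID, which the authors made by adapter removal (cutadapt), mapping with TopHat2 2.0.9 to the NCBI37/mm9 genome and htseq-count on reads of mapping quality above 20. Other versions and a strand setting were not given in the sources used here. Reads assigned to no transcript stayed out of library sizes and tests. For a gene with several IDs, the ID with the highest summed count was used.

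KO was compared with WT in edgeR 4.0.16 (R 4.3.3) with TMM normalization and the quasi-likelihood F-test, on transcripts that reached 1 CPM in both libraries of 1 genotype or more, with Benjamini-Hochberg adjustment over all of them. The SE is the fold change over the square root of F. Differences within a passage are of log2 CPM with 0.5 added to each count, without a test. Passages were compared with genotype as a term. The procedure was tested on simulated data. Tables (pandas 2.3.3, numpy 2.4.6), counting intervals (scipy 1.17.1) and plots (matplotlib 3.10.9) were made in Python 3.11.15.

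Positions and transcript lengths are of NCBIM37, the build of the mapping. A RefSeq table of GRCm38.p6 gave symbols and promoter sequences only. Named are the members, the called genes and up to 4 genes of smallest p in each list, the 3 nearest patterns of each called member, and *Tmpo*. Cluster and marker genes are named beside them. The members and lists were chosen with earlier results of these data known. Alternatives were leaving out each library, a replicate block, counts summed per symbol, other filters, library totals or RLE size factors, the likelihood ratio and exact tests of edgeR, and DESeq2 1.42.0. A filter on a mean of 1 CPM and a marker sum without *Csf1r* were added after the data were seen.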

Additional observations from a re-analysis of the deposited data

Results flagged for a closer look

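The difference between KO and WT had opposite signs at the passages for 2 of the tested members. For *Mmp14* the log2 difference was 0.15 at passage 34 and −0.31 at passage 42. For *Timp3* it was −0.39 at passage 34 and 0.71 at passage 42. Each value compares 1 library with 1, and the difference between the passages was not tested. Groups of 2 libraries were not searched for samples far from the rest.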

How the results depend on the processing

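*Mmp3* was called higher under each of the 13 alternatives that tested it. Apart from the fits with no filter or a filter on the mean, these kept the filter that had fixed its direction. Nothing is read from their agreement. With a filter of 1 CPM in all 4 libraries it was not tested, and 0 members were called higher. *Mmp2* and *Mmp9* were called lower under 13 of 14 alternatives, and the exception for both was the fit without the WT library of passage 34. With 1 library left out at a time, 1 member was called higher in each fit and 0 to 2 were called lower. The log2 fold change then ran from −2.01 to −1.20 for *Mmp2*, from 3.23 to 3.90 for *Mmp3* and from −2.73 to −1.69 for *Mmp9*. For *Mmp14* it ran from −0.27 to 0.0559 and for *Timp3* from −0.32 to 0.57, with the sign turned, for both, without the KO library of passage 42. Such fits leave 1 library in a group, which is assumed to vary like the others.

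Over all transcripts, 381 were called in the main comparison, 612 with edgeR's exact test, 638 with the likelihood ratio test, 740 without a filter on low counts and 156 to 1199 with 1 library left out (156 without the WT library of passage 34, 816 without the KO library of passage 34 and 1199 without that of passage 42). With a replicate block 1092 were called, and no call of a member changed (*Mmp23*, outside the members, was then called lower, at a log2 fold change of −1.30 and an adjusted p of 4.39e-05). The replicate numbers mark the passages, and no source says that a number marks a shared batch or day. The deviations of same-numbered libraries correlated at 0.172 over 13855 transcripts, with 2 pairs. Between passages, 320 transcripts were called, and 0 without a genotype term. The difference in the log2 ratio of MMP to TIMP sums, −0.47, was 0.0921 without *Mmp2* and −1.15 without *Mmp14*. The causes of these shifts were not tested. Depth limits what can be said of *Mmp10* and *Mmp13*, with 6 to 26 reads per library.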
